A study of Morone chrysops with 54 samples.

Results

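Livers of juvenile white bass fed 2 diets without fish meal, and with no poultry by-product meal added as an ingredient of its own, were compared directly. Diet 5 was the all-plant diet, in which the protein came from soybean meal, canola meal, soy protein concentrate and wheat gluten. Diet 6 combined soybean meal with Pro-Cision, a commercial protein blend. Blends of this kind mix rendered animal meals (poultry by-product, meat and bone, feather and blood) with plant proteins in undisclosed proportions, so its ingredients cannot be told apart here. Both diets contained wheat and menhaden fish oil, and of the pair only Diet 5 contained canola oil, so a difference between them is a difference between whole diets. Fish of approximately 40 g were fed for 60 days in 3 tanks per diet, and 3 fish per tank gave 1 liver library each. All 9 Diet 6 libraries and 8 of the 9 Diet 5 libraries were used, since Diet 5 replicate 7 held 755 counts. Of the 20914 contigs in the files, the 9956 whose counts averaged 5 or more over these 17 libraries were tested. The 9 fish fed Diet 1, the control diet with fish meal, are given beside them where noted. The fish was taken as the replicate, so the p-values measure the spread between fish and not between tanks.

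The files carry contig identifiers only. Descriptions came from the study's lists of contigs that differed from Diet 1 in these same libraries, and they cover 973 of the contigs tested. Named contigs are therefore not an independent selection. Counts of DEGs among them are set beside the share called among all contigs tested and among the described contigs. The share among described contigs was not computed for comparisons with Diet 1, nor for counts of values below 0. Reads of similar contigs were shared out by estimation, so values of paralogs and isoforms are uncertain, and levels are not compared between genes because contig lengths were not used.

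The liver stores iron and makes the proteins that handle it. Ferroportin is the only known route by which iron leaves vertebrate cells, and the peptide hormone hepcidin binds it and removes it from the cell surface. Several fish also carry a separate group of hepcidins that act mainly as antimicrobial peptides. The liver also makes most plasma complement, synthesizes cholesterol and holds many mitochondria, whose genome encodes subunits of the respiratory chain.

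The Diet 5 libraries held 9240715 to 17336918 counts, with a median of 10372645, and the Diet 6 libraries held 5964761 to 16228574, with a median of 12539625. The 7 contigs taken as liver markers were above 0 in every fish. Their summed level was 39475 to 51905 CPM (counts scaled to library size) with Diet 5, at a median of 47488 CPM. With Diet 6 it was 21072 to 50251 CPM, at a median of 29033 CPM. Of these 7, 3 fell with Diet 6 (42.9%, against 9.46% of described contigs and 1.37% of all contigs), and these are described below. The 7 markers of the exocrine pancreas, tissue that lies within the liver of many fishes, summed to 6904 to 109939 CPM with Diet 5 and to 85.5 to 68311 CPM with Diet 6. In Diet 6 replicates 2, 4 and 9 they summed to 85.5, 256 and 172 CPM, and chymotrypsin A-like was the single marker at 0 in any fish. None of the 7 passed the test (smallest adjusted p = 0.615, and 0 at an unadjusted p under 0.05 by edgeR or called by DESeq2). Counts without these 3 fish are given beside the results, and the count of all DEGs is also given with the exocrine markers as a model term. In bulk liver, fewer cells of a type and less RNA per cell cannot be told apart.

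A differentially expressed gene (DEG) is a contig with a Benjamini-Hochberg adjusted p under 0.05 in the quasi-likelihood F-test of edgeR and a change of more than 1.5-fold. There were 259 DEGs, or 2.60% of the contigs tested, of which 123 were higher with Diet 6 (1.24%) and 136 were lower (1.37%). Their changes ran from -8.26 to 4.16 on the log2 scale, always given as Diet 6 minus Diet 5, and the median size was 1.02. There were 127 DEGs that changed by less than 2-fold and 29 by more than 4-fold, while the median over all contigs tested was 0.02. Without the fold threshold 320 contigs passed (3.21%). The CPM of the fish did not overlap between the diets for 53 contigs, 0.532% of those tested, with 20 higher with Diet 6 (0.201%) and 33 lower (0.331%), and 46 of the 53 were DEGs. Among the 973 described contigs 162 were DEGs (16.6%), of which 70 were higher (7.19%) and 92 lower (9.46%), against 97 of 8983 contigs without a description (1.08%). Of all DEGs, 158 were called in each of the 17 fits that left out 1 fish. Without the 3 Diet 6 fish lowest in exocrine markers there were 121 DEGs, with the exocrine score (the mean log2 CPM of the 7 markers) as a model term there were 193 (69 higher and 124 lower), and with counts summed per T tag, the part of the label shared by 3 fish, there were 81.

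**Figure D1:**
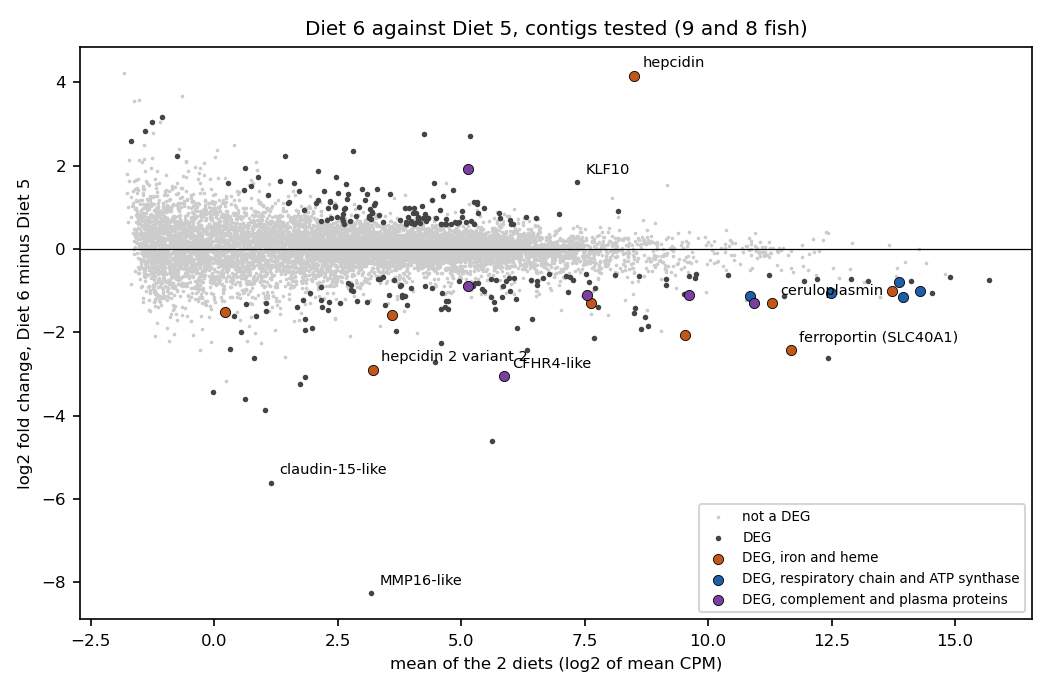
Each point is 1 of the 9956 contigs tested, with the log2 of the mean CPM of the diets on the x axis and the log2 fold change, Diet 6 minus Diet 5, on the y axis. Hepcidin stands at 4.16, far above the other abundant contigs, while ferroportin, ceruloplasmin and the mitochondrially encoded contigs lie below 0 among the most abundant.

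Iron and heme handling held the largest share of changed members of any list. Of 14 contigs tested, 8 fell (57.1%, against 9.46% of described contigs and 1.37% of all contigs). Hepcidin was the 1 that rose (7.14%, against 7.19% and 1.24%). The median log2 change of the list was -1.19, and 13 of 14 values were below 0. All 9 DEGs were called in each fit that left out 1 fish, 7 without the 3 fish low in exocrine markers and 8 with counts summed per T tag.

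The contig described as hepcidin, whose group among the hepcidins of fish was not determined, was the DEG with the largest rise. It ranged from 1.15 to 145 CPM with Diet 5 (median 21) and from 222 to 1027 CPM with Diet 6 (median 724). Every Diet 6 fish was above every Diet 5 fish, and the log2 change was 4.16 with a standard error (SE) of 0.647 (adjusted p = 0.00135). Without Diet 5 replicate 9, the Diet 5 fish nearest to the Diet 6 range, the change was 4.87. A contig described as hepcidin 2 variant 2 went the other way. It ranged from 7.53 to 38.9 CPM with Diet 5 (median 11.3) and from 0.313 to 8.34 CPM with Diet 6 (median 1.18). All but 1 of the 9 Diet 6 fish were below the lowest Diet 5 fish, and the log2 change was -2.90 (SE 0.510, adjusted p = 0.00335), or -3.54 without Diet 6 replicate 4.

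Ferroportin, solute carrier family 40 member 1, exports iron from cells and is the target of hepcidin. It ranged from 2322 to 9370 CPM with Diet 5 (median 5562) and from 382 to 1671 CPM with Diet 6 (median 858). The diets did not overlap, and the log2 change was -2.43 (SE 0.323, adjusted p = 0.000445). Transferrin receptor protein 1, which takes up transferrin-bound iron, ranged from 200 to 383 CPM with Diet 5 (median 275) and from 52.6 to 153 CPM with Diet 6 (median 113). It did not overlap either, with a log2 change of -1.30 (SE 0.175, adjusted p = 0.000447). Ceruloplasmin, the copper ferroxidase that oxidizes exported iron for loading onto transferrin, ranged from 2580 to 4385 CPM with Diet 5 (median 3516) and from 1014 to 1891 CPM with Diet 6 (median 1522). Again no fish overlapped, and the log2 change was -1.31 (SE 0.149, adjusted p = 9.01e-05).

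The proteins that scavenge hemoglobin and heme were lower as well. Haptoglobin-like, which binds free hemoglobin, ranged from 509 to 2022 CPM with Diet 5 (median 1015) and from 117 to 619 CPM with Diet 6 (median 251). A single Diet 6 fish reached the Diet 5 range, and the log2 change was -2.06 (SE 0.309, adjusted p = 0.000984). Warm-temperature-acclimation-related 65-kDa protein (Wap65), the teleost homolog of the heme carrier hemopexin, ranged from 15240 to 21927 CPM with Diet 5 (median 17885) and from 5759 to 12691 CPM with Diet 6 (median 8580). The groups did not overlap, and the log2 change was -1.02 (SE 0.158, adjusted p = 0.00129).

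A pair of less abundant members fell with less certainty. Erythroferrone-like is named for a hormone that red cell precursors of mammals release to lower hepcidin. It ranged from 9.34 to 29.9 CPM with Diet 5 (median 16.3) and from 3.24 to 12.4 CPM with Diet 6 (median 5.17), with a log2 change of -1.58 (SE 0.295, adjusted p = 0.00485). Heme oxygenase 2-like, which breaks heme down and frees its iron, ranged from 1.26 to 2.27 CPM with Diet 5 (median 1.80) and from 0.296 to 1.34 CPM with Diet 6 (median 0.444), with a log2 change of -1.52 (SE 0.340, adjusted p = 0.0171). In each of these contigs 1 Diet 6 fish lay within the Diet 5 range. Neither remained a DEG with the replicate number as a block or without the 3 fish low in exocrine markers.

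The other 5 members did not pass the test. Ferritin, middle subunit, the iron storage protein, ranged from 2095 to 4556 CPM with Diet 5 and from 811 to 3421 CPM with Diet 6, with a log2 change of -0.39 (adjusted p = 0.412). Hemoglobin subunit beta-A-like had -1.08 (adjusted p = 0.148), cytoplasmic aconitate hydratase -0.66 (adjusted p = 0.473), heme transporter hrg1-A-like -0.49 (adjusted p = 0.157) and erythropoietin -0.41 (adjusted p = 0.398). The summed level of the erythrocyte markers, hemoglobin subunit beta-A-like and carbonic anhydrase 1, was 40.0 to 127 CPM with Diet 5 and 52.3 to 125 CPM with Diet 6. Neither passed the test, and their changes had opposite signs, with carbonic anhydrase 1 at 0.59 (adjusted p = 0.191), though both had an unadjusted p under 0.05. Without Diet 6 replicate 7 hemoglobin subunit beta-A-like was a DEG (-1.39, adjusted p = 0.0359), and without Diet 5 replicate 4 carbonic anhydrase 1 was (0.80, adjusted p = 0.0336).

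**Figure D2:**
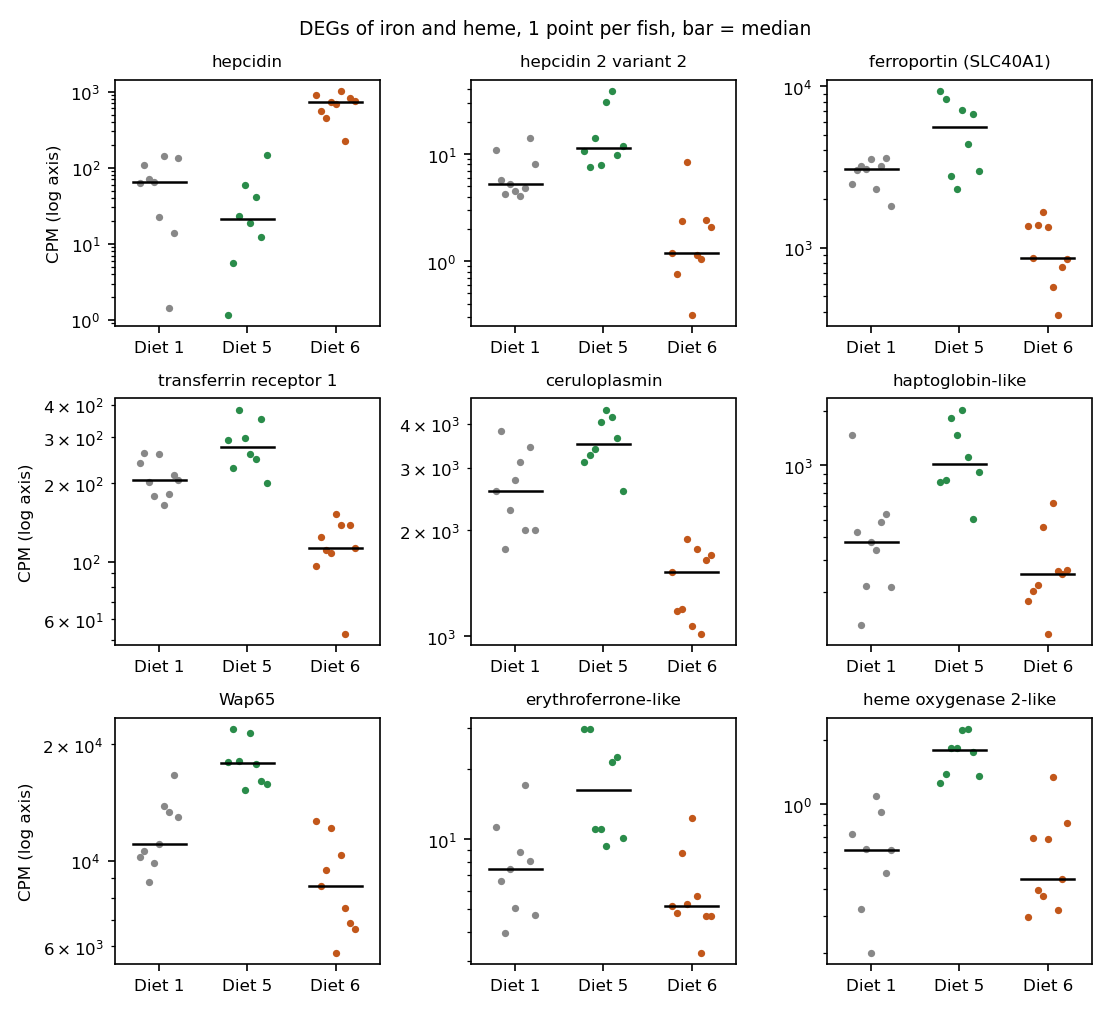
The 9 DEGs of the iron and heme list, with CPM on a log y axis, 1 point per fish and a bar at the median of Diet 1, Diet 5 and Diet 6. Only hepcidin is higher with Diet 6, at 222 to 1027 CPM, and ferroportin, transferrin receptor 1, ceruloplasmin and Wap65 are lower in every Diet 6 fish than in any Diet 5 fish. A Diet 1 fish at 0 for heme oxygenase 2-like cannot be drawn on the log axis.

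Against Diet 1, the log2 changes of all but heme oxygenase 2-like among these 9 DEGs had opposite signs with Diet 5 and Diet 6, though not all passed the test. The comparisons share the 9 Diet 1 libraries and are given side by side without a test of their relation. The 9 DEGs were picked for a difference between Diet 5 and Diet 6, so opposite signs partly follow from that choice. Hepcidin stood at -0.87 with Diet 5 (adjusted p = 0.492) and at 3.28 with Diet 6 (adjusted p = 0.00260). The study itself reported this contig as higher with Diet 5 than with Diet 1, by RNA sequencing and by RT-qPCR. Ferroportin rose with Diet 5 (0.91, adjusted p = 0.0318) and fell with Diet 6 (-1.52, adjusted p = 0.00127). Hepcidin 2 variant 2 rose with Diet 5 (1.26, adjusted p = 0.0334) and stood at -1.64 with Diet 6 (adjusted p = 0.0665). Transferrin receptor protein 1 and ceruloplasmin fell with Diet 6, by 0.89 and 0.88, and stood at 0.41 and 0.44 with Diet 5, values that did not pass the test. For haptoglobin-like, Wap65, erythroferrone-like and heme oxygenase 2-like the call was with Diet 5, at 1.34, 0.60, 1.16 and 1.67. Of all 14 contigs of the list, 9 rose and 0 fell with Diet 5 against Diet 1, at a median log2 change of 0.82. With Diet 6 against Diet 1, 1 rose and 3 fell, at a median of -0.27. Among all contigs tested against Diet 1 there were 485 DEGs of 9333 with Diet 5 (5.20%) and 112 of 9783 with Diet 6 (1.14%). Descriptions came from contigs that the study called against Diet 1 in these libraries, so the list counts against Diet 1 partly repeat that selection. The exocrine pancreas markers summed to 12832 to 174261 CPM with Diet 1, and the medians were 114574 CPM with Diet 1, 37160 CPM with Diet 5 and 22165 CPM with Diet 6. Their median log2 change against Diet 1 was -1.56 with Diet 5, where 2 of them fell, and -2.17 with Diet 6, where none was called, and their part in the comparisons with Diet 1 was not tested.

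The 5 described contigs of the mitochondrial genome were lower with Diet 6, and those of the nuclear genome in the same list were not called. Their descriptions came from the study's calls against Diet 1, which used these same Diet 6 libraries. Mitochondrial contigs without a description could not be identified, so the rest of that genome was not examined. In the list of the respiratory chain and ATP synthase, 5 of 13 contigs fell (38.5%, against 9.46% of described contigs and 1.37% of all contigs) and none rose, with a median log2 change of -0.60. The 5 DEGs were the 5 mitochondrially encoded members, and 11 of the 13 values were below 0. The list held 6 DEGs in DESeq2 and in limma, and 7 in the joint fit of 53 libraries and without Diet 6 replicate 6. Nuclear members were thus also called under those settings. NADH dehydrogenase subunit 5, part of complex I, ranged from 16301 to 26403 CPM with Diet 5 (median 21226) and from 4989 to 14467 CPM with Diet 6 (median 9215), with no overlap and a log2 change of -1.15 (SE 0.164, adjusted p = 0.000606). Cytochrome c oxidase subunit I, the catalytic core of complex IV, ranged from 23865 to 33195 CPM with Diet 5 (median 26053) and from 4081 to 18410 CPM with Diet 6 (median 14111), with no overlap and a log2 change of -1.02 (SE 0.202, adjusted p = 0.00691). For NADH dehydrogenase subunits 1 and 2 and cytochrome c oxidase subunit II, 8 of 9 Diet 6 fish were below every Diet 5 fish. Their log2 changes were -1.06 (SE 0.207, adjusted p = 0.00618), -1.12 (SE 0.217, adjusted p = 0.00614) and -0.80 (SE 0.154, adjusted p = 0.00558).

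Together these 5 contigs took 5.79% to 9.38% of all counts with Diet 5 (median 7.60%), 2.26% to 6.59% with Diet 6 (median 4.82%) and 4.59% to 8.03% with Diet 1 (median 5.93%). Diet 6 replicate 7 held the lowest share, and all 5 were DEGs in each fit that left out 1 fish and without the 3 fish low in exocrine markers. All but NADH dehydrogenase subunit 2 lost the call when Diet 5 replicate 7 was kept, and cytochrome c oxidase subunit II lost it with counts summed per T tag. The nuclear members included cytochrome c oxidase subunit 4 isoform 2 (-0.30, adjusted p = 0.467), ATP synthase F(0) complex subunits C2 (-0.24, adjusted p = 0.391) and C3 (0.25, adjusted p = 0.562), cytochrome c oxidase protein 20 homolog (-0.60, adjusted p = 0.0531) and cytochrome c-b (-0.90, adjusted p = 0.151). Against Diet 1, the 5 mitochondrially encoded contigs stood at 0.10 to 0.30 with Diet 5, with none called, and at -0.71 to -0.87 with Diet 6, where NADH dehydrogenase subunit 5 and cytochrome c oxidase subunits I and II were called.

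Several complement components fell with Diet 6. In the list of complement and plasma proteins 5 of 14 contigs fell (35.7%, against 9.46% of described contigs and 1.37% of all contigs) and 1 rose (7.14%, against 7.19% and 1.24%). The median log2 change was -0.49, with 8 values below 0 and 6 above. The largest fall was in complement factor H-related protein 4-like, a relative of the complement regulator factor H. It ranged from 45.2 to 188 CPM with Diet 5 (median 99.9) and from 1.92 to 26.7 CPM with Diet 6 (median 11.0), with no overlap and a log2 change of -3.05 (SE 0.365, adjusted p = 0.000126). Complement C4-like, a component of the classical and lectin pathways, ranged from 1678 to 3604 CPM with Diet 5 (median 2849) and from 526 to 1956 CPM with Diet 6 (median 1132), with a log2 change of -1.31 (SE 0.216, adjusted p = 0.00212). Complement factor H-like ranged from 812 to 1402 CPM with Diet 5 and from 332 to 912 CPM with Diet 6, with -1.11 (SE 0.182, adjusted p = 0.00206). In C4-like and factor H-like 1 Diet 6 fish reached the Diet 5 range.

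Complement C1r subcomponent-like, a protease that starts the classical pathway, fell by 0.88 (SE 0.202, adjusted p = 0.0196) and was no longer a DEG without the 3 fish low in exocrine markers. Alpha-1-acid glycoprotein 1-like, a plasma carrier protein of the acute phase, fell by 1.10 (SE 0.249, adjusted p = 0.0173). The single rise was pentraxin-related protein PTX3, a soluble pattern recognition protein, from 5.45 to 29.5 CPM with Diet 5 (median 12.8) to 9.96 to 109 CPM with Diet 6 (median 62.9). The ranges overlapped, the log2 change was 1.92 (SE 0.413, adjusted p = 0.0127), and the call was lost under the replicate block, with adjustment for the exocrine score, in the T tag sums and without the 3 fish. The terminal component complement C5 (-0.47, adjusted p = 0.0989), complement C1r-A subcomponent-like (-0.63, adjusted p = 0.0634), clusterin (1.22, adjusted p = 0.189), complement decay-accelerating factor isoform X1 (0.53, adjusted p = 0.830) and alpha-2-HS-glycoprotein-like (0.09, adjusted p = 0.885) did not pass the test. All 6 DEGs were called in each fit that left out 1 fish. The list held 8 DEGs with adjustment for the exocrine score and 8 without Diet 6 replicate 4. It held 5 without the 3 fish and 4 in the T tag sums.

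**Figure D3:**
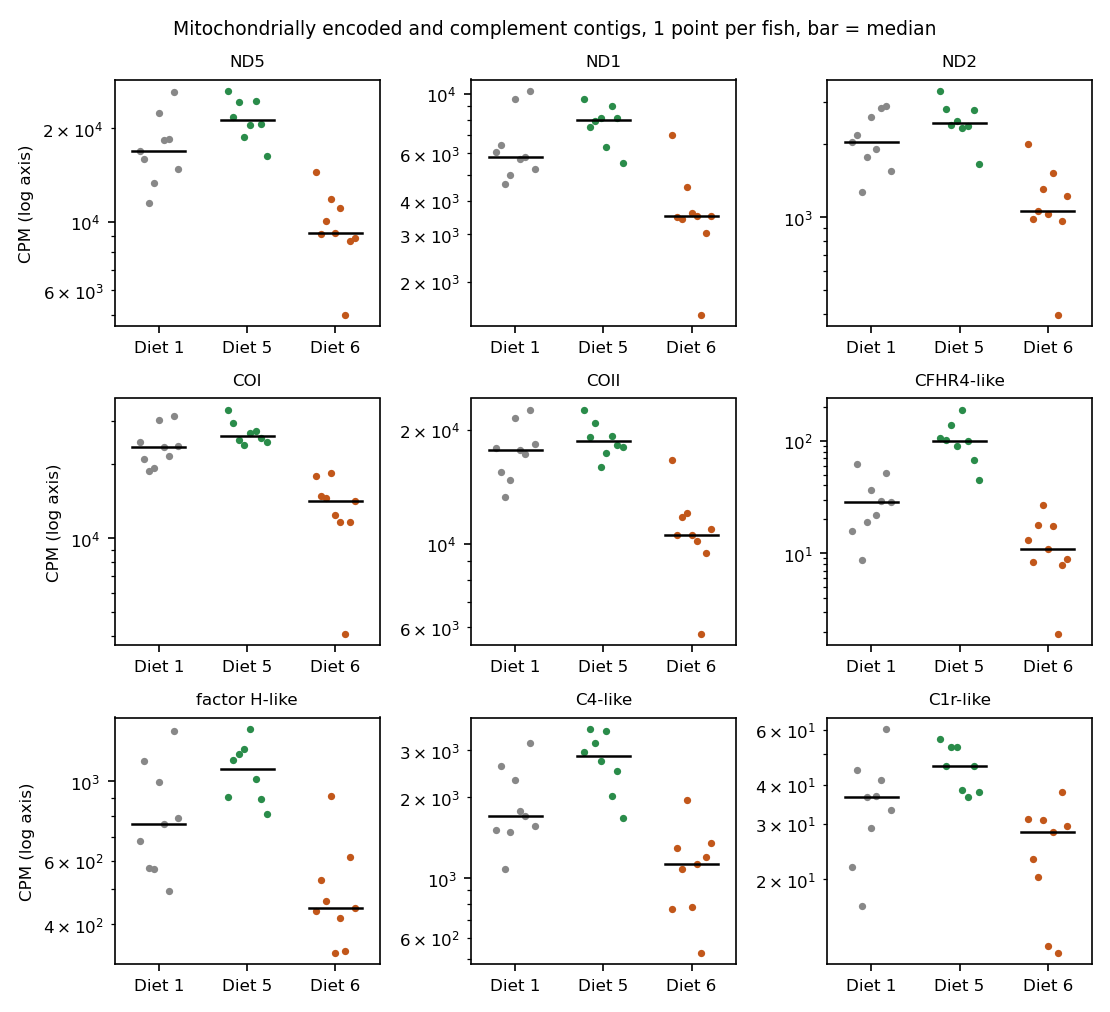
CPM on a log y axis, 1 point per fish with a bar at the median, for the 5 mitochondrially encoded contigs (ND, NADH dehydrogenase subunits; CO, cytochrome c oxidase subunits) and 4 complement contigs. NADH dehydrogenase subunit 5, cytochrome c oxidase subunit I and complement factor H-related protein 4-like (CFHR4-like) are lower in all 9 Diet 6 fish than in any of the 8 Diet 5 fish, and Diet 6 replicate 7 is the lowest fish in these 3 panels.

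Immune contigs were mostly on the lower side with Diet 6. Of 33 tested, 28 had a log2 change below 0, 7 fell (21.2%, against 9.46% of described contigs and 1.37% of all contigs) and 2 rose (6.06%, against 7.19% and 1.24%), with a median of -0.59. The same Diet 5 libraries entered the study's lists that gave the names, so the count of signs is not independent of that selection. C-type lectin domain family 4 member E-like, a macrophage receptor for microbial and damaged-cell ligands, ranged from 363 to 837 CPM with Diet 5 (median 657) and from 69.5 to 409 CPM with Diet 6 (median 150), with a log2 change of -1.92 (SE 0.297, adjusted p = 0.00129). SAM domain-containing protein SAMSN-1-like, an adaptor of blood cells, ranged from 7.03 to 60.9 CPM with Diet 5 and from 2.97 to 7.24 CPM with Diet 6, with -1.97 (SE 0.358, adjusted p = 0.00410). In both, 8 of 9 Diet 6 fish were below every Diet 5 fish. Lysozyme C, which cleaves bacterial cell walls, ranged from 34374 to 45338 CPM with Diet 5 (median 36503) and from 17387 to 31560 CPM with Diet 6 (median 22358), with no overlap and -0.67 (SE 0.125, adjusted p = 0.00485).

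C-C motif chemokine 19-like, which guides lymphocytes and dendritic cells, fell by 1.34 (adjusted p = 0.00614), and neutrophil cytosol factor 1, a subunit of the phagocyte oxidase, fell by 1.11 (adjusted p = 0.0153). The neutrophil chemokine receptor CXCR2-like fell by 1.39 (adjusted p = 0.0463) and interleukin-17 receptor C-like by 0.73 (adjusted p = 0.0489), but these remained DEGs in 6 and 5 of the 17 fits that left out 1 fish. The rises were in tumor necrosis factor ligand superfamily member 12, from a median of 6.51 to 16.5 CPM (1.32, SE 0.240, adjusted p = 0.00414), and in programmed cell death 1 ligand 2-like, whose mammalian counterpart restrains T cells, from a median of 12.7 to 43.9 CPM (1.42, SE 0.332, adjusted p = 0.0211). Among the members not called were gamma-interferon-inducible lysosomal thiol reductase-like (-2.59, adjusted p = 0.0595), C-C motif chemokine 20-like (-1.09, adjusted p = 0.118) and macrophage mannose receptor 1 (adjusted p = 1.000). The count depended on the test, and the list held 9 DEGs in edgeR, 16 in DESeq2, 5 without the 3 fish low in exocrine markers and 2 with counts summed per T tag.

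**Figure D4:**
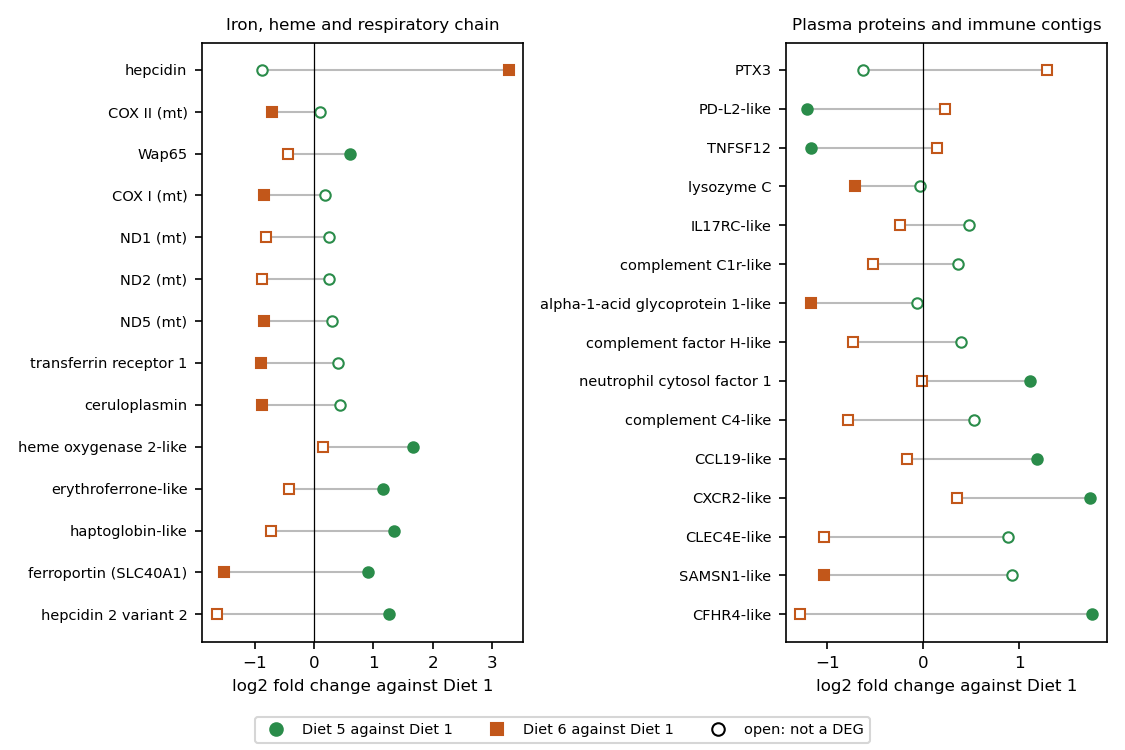
Log2 fold changes against Diet 1 on the x axis for the DEGs of the iron and heme, respiratory chain, plasma protein and immune lists, with circles for Diet 5 and squares for Diet 6, filled where the contig was a DEG against Diet 1. Hepcidin is at -0.87 with Diet 5 and 3.28 with Diet 6, and ferroportin is filled on both sides, at 0.91 and -1.52; both series share the Diet 1 libraries.

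Against Diet 1, 13 of the 33 immune contigs rose and 4 fell with Diet 5, while 0 rose and 3 fell with Diet 6. Of the 14 plasma contigs 1 rose and 2 fell with Diet 5, and 1 rose and 5 fell with Diet 6. Of all contigs tested against Diet 1, 5.20% were called with Diet 5 and 1.14% with Diet 6. These shares are not a like background, since the list members were described from the study's calls against Diet 1 in the same libraries. Among the plasma and immune DEGs described above, none was called against Diet 1 with both diets. Complement factor H-related protein 4-like rose with Diet 5 (1.76, adjusted p = 0.00492) and stood at -1.28 with Diet 6 (adjusted p = 0.0941). Neutrophil cytosol factor 1, C-C motif chemokine 19-like and CXCR2-like rose with Diet 5, by 1.11, 1.18 and 1.73, and stood at -0.01, -0.17 and 0.35 with Diet 6. Lysozyme C stood at -0.04 with Diet 5 and fell by 0.71 with Diet 6, and alpha-1-acid glycoprotein 1-like stood at -0.07 and fell by 1.17. Complement C4-like, complement factor H-like, complement C1r subcomponent-like, PTX3, C-type lectin domain family 4 member E-like and interleukin-17 receptor C-like were DEGs against Diet 1 with neither diet.

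Sterol synthesis was on the lower side with Diet 6 relative to Diet 5. All 8 members had a log2 change below 0, with a median of -1.05, and 3 fell (37.5%, against 9.46% of described contigs and 1.37% of all contigs). 3-hydroxy-3-methylglutaryl-Coenzyme A reductase, the rate-limiting enzyme of cholesterol synthesis, ranged from 248 to 2202 CPM with Diet 5 (median 511) and from 95.9 to 273 CPM with Diet 6 (median 185). The highest value was that of Diet 5 replicate 3. The log2 change was -1.86 (SE 0.337, adjusted p = 0.00402), and -1.32 without that fish. Emopamil-binding protein-like, related to a sterol isomerase, fell by 1.01 (adjusted p = 0.00957) and probable ergosterol biosynthetic protein 28 by 1.28 (adjusted p = 0.0209). Lanosterol 14-alpha demethylase had -1.58 (adjusted p = 0.0514) and low-density lipoprotein receptor-like, which takes up cholesterol-bearing particles, -0.82 (adjusted p = 0.271). The list held 1 DEG without the 3 fish low in exocrine markers and 0 with counts summed per T tag. Against Diet 1, 2 of the 8 contigs rose and 0 fell with Diet 5, while 0 rose and 1 fell with Diet 6. The list median against Diet 1 was above 0 with Diet 5. With Diet 6 it was -0.22, nearer to 0 than with Diet 5. Names came from the study's calls in these same libraries, so neither these counts nor the count of signs is independent of that selection.

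No contig of fatty acid and triglyceride synthesis passed the test among 12, although 4 had an unadjusted p under 0.05 and DESeq2 called 2. Without Diet 6 replicate 6 the list held 3 DEGs. Fatty acid synthase ranged from 162 to 4682 CPM with Diet 5 (median 277) and from 52.6 to 1111 CPM with Diet 6 (median 92.5), with a log2 change of -1.98 (SE 0.760, adjusted p = 0.186). ATP-citrate synthase, which supplies acetyl-CoA for lipids, had -1.56 (SE 0.851, adjusted p = 0.395) and acyl-CoA desaturase-like, which makes monounsaturated fatty acids, -1.22 (SE 0.711, adjusted p = 0.440). In fatty acid synthase a single fish per diet stood far above the others, Diet 5 replicate 3 and Diet 6 replicate 6. Of 8 contigs of fatty acid oxidation and lipolysis, 1 rose, acyl-CoA synthetase family member 2, which activates medium-chain fatty acids (1.43, SE 0.334, adjusted p = 0.0211), and the list median was 0.08. That is 12.5% of the list, against 7.19% of described contigs and 1.24% of all contigs. That rise was not called without the 3 fish low in exocrine markers, in the T tag sums or with adjustment for the exocrine score.

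In glucose and carbohydrate metabolism 2 of 11 contigs fell (18.2%, against 9.46% of described contigs and 1.37% of all contigs) and none rose, with a median of 0.40. The list held 0 DEGs with counts summed per T tag and 0 to 3 when each fish was left out in turn. Fructose-1,6-bisphosphatase 1-like, an enzyme of gluconeogenesis, ranged from 571 to 1017 CPM with Diet 5 (median 727) and from 230 to 729 CPM with Diet 6 (median 334), with a log2 change of -0.87 (SE 0.230, adjusted p = 0.0407), and it was a DEG in 5 of the 17 fits that left out 1 fish. Maltase-glucoamylase, intestinal-like, a digestive enzyme of starch, held 327 counts over the Diet 5 fish and 35 over the Diet 6 fish. Its ratio was 11.6-fold, with a 95% interval of 8.16 to 16.9 that covers counting error only. The fitted log2 change was -3.86 (SE 0.949, adjusted p = 0.0283), or -6.00 without Diet 6 replicate 4, and the call was lost without any of Diet 5 replicates 1 and 2 and Diet 6 replicates 3 and 9, at adjusted p values up to 0.0735. Phosphoenolpyruvate carboxykinase, the other gluconeogenic enzyme described, had -0.51 (adjusted p = 0.0262), a change below 1.5-fold.

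Among 18 contigs of amino acid, folate and creatine metabolism, 3 fell (16.7%, against 9.46% of described contigs and 1.37% of all contigs) and 1 rose (5.56%, against 7.19% and 1.24%), with a median of -0.09. These 4 DEGs became 2 with counts summed per T tag, 2 without the 3 fish low in exocrine markers and 3 to 5 when each fish was left out in turn. Arginase-1-like, which splits arginine into urea and ornithine, ranged from 79.8 to 334 CPM with Diet 5 (median 108) and from 10.7 to 53.5 CPM with Diet 6 (median 19.8). No fish overlapped, and the log2 change was -2.42 (SE 0.366, adjusted p = 0.00104), while the other arginase, arginase-2, had 0.19 (adjusted p = 0.894). Bifunctional methylenetetrahydrofolate dehydrogenase/cyclohydrolase, an enzyme of folate metabolism, fell by 1.24 (adjusted p = 0.00396), and folate transporter 1 fell by 0.61 (adjusted p = 0.0209), in 13 of the 17 fits. 4-hydroxyphenylpyruvate dioxygenase-like protein rose by 1.03 with no overlap (SE 0.210, adjusted p = 0.00889). Against Diet 1, arginase-1-like rose with Diet 5 (1.66, adjusted p = 0.00446) and stood at -0.75 with Diet 6 (adjusted p = 0.291).

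Of 12 contigs of glutathione synthesis and use, 1 fell (8.33%, below the 9.46% of described contigs and above the 1.37% of all contigs). In this list 7 contigs had an unadjusted p under 0.05 by edgeR, and 6 values were below 0 and 6 above. Phospholipid hydroperoxide glutathione peroxidase, the enzyme that reduces lipid peroxides in membranes, ranged from 308 to 1008 CPM with Diet 5 (median 486) and from 124 to 422 CPM with Diet 6 (median 157), with a log2 change of -1.54 (SE 0.255, adjusted p = 0.00213). A further contig with the same description had -0.36 (adjusted p = 0.260), and reads can be split between such contigs. The subunits of glutamate-cysteine ligase, the first step of glutathione synthesis, had 0.72 (regulatory, adjusted p = 0.139) and 0.25 (catalytic, adjusted p = 0.635).

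**Figure D5:**
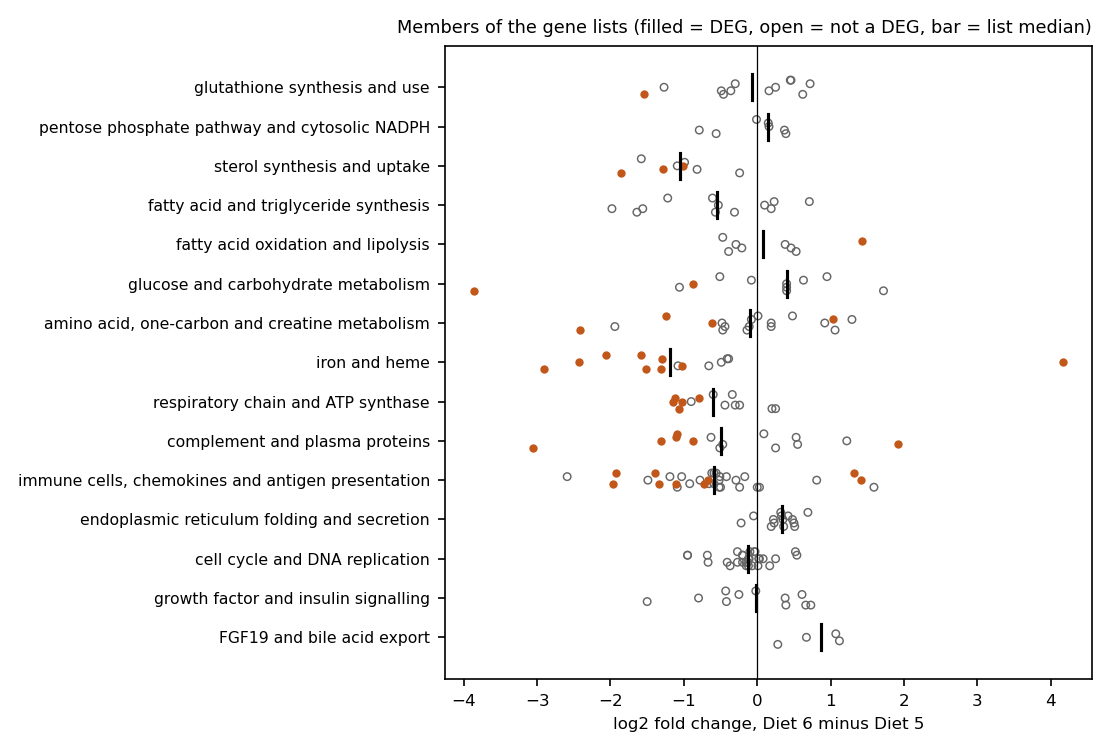
Log2 fold change, Diet 6 minus Diet 5, on the x axis for each member of 15 gene lists, with filled points for DEGs, open points for contigs that were not DEGs and a bar at the list median. Iron and heme members lie on the left at a median of -1.19 with hepcidin alone at 4.16, and the members of the last 4 lists are all open.

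In 5 further lists no contig passed the test in the fit of all 17 fish. These were the pentose phosphate pathway and cytosolic NADPH (7 tested, median 0.15, smallest adjusted p = 0.0637), endoplasmic reticulum folding and secretion (14 tested, median 0.34, smallest adjusted p = 0.108), cell cycle and DNA replication (29 tested, median -0.12, smallest adjusted p = 0.0643), growth factor and insulin signalling (11 tested, median -0.02, smallest adjusted p = 0.0590) and FGF19 and bile acid export (4 tested, median 0.87, smallest adjusted p = 0.348). At an unadjusted p under 0.05 edgeR gave 3, 3, 3, 7 and 0 contigs in them, and DESeq2 called 0, 0, 1, 3 and 1. Blocking on replicate number gave 1, 0, 1, 1 and 1 DEGs, and leaving out each fish in turn gave at most 1, 0, 1, 2 and 2, where the 2 of FGF19 and bile acid export came without Diet 5 replicate 4. Glucose-6-phosphate 1-dehydrogenase, the first enzyme of the pentose phosphate pathway, had -0.01 (SE 0.178, adjusted p = 0.985). Of the 13 contigs with matching RT-qPCR assays, hepcidin, heat shock protein 70 (1.42, adjusted p = 0.0248) and olfactory marker protein (1.18, adjusted p = 0.0491) rose (23.1%, against 7.19% of described contigs and 1.24% of all contigs) and CXCR2-like fell (7.69%, against 9.46% and 1.37%). Of these 4 only hepcidin was a DEG in each fit that left out 1 fish, under the replicate block and without the 3 fish low in exocrine markers. Heat shock protein 70 was at low counts, from 0.419 to 1.53 CPM with Diet 5 and from 0.996 to 4.16 CPM with Diet 6. Its ranges overlapped, as did those of olfactory marker protein. The study printed the same identifier for its dipeptidyl peptidase 4-like and ribosomal protein S19 assays, so the contig that matches 1 of them is uncertain. Insulin-like growth factor II, a fetal and hepatic growth factor, had 0.73 (SE 0.216, adjusted p = 0.0698).

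The described contigs with the smallest adjusted p included regulators outside these lists. Krueppel-like factor 10, a transcriptional repressor induced by TGF-beta, ranged from 39.2 to 103 CPM with Diet 5 (median 87.1) and from 168 to 316 CPM with Diet 6 (median 231). The groups did not overlap, and the log2 change was 1.60 (SE 0.178, adjusted p = 9.01e-05). Growth arrest-specific protein 1-like, a membrane protein that can block entry into the cell cycle, ranged from 11.9 to 30.4 CPM with Diet 5 and from 39.6 to 66.4 CPM with Diet 6, with no overlap and 1.13 (SE 0.154, adjusted p = 0.000482). Core-binding factor subunit beta, the partner of the RUNX transcription factors, ranged from 1.28 to 9.80 CPM with Diet 5 (median 4.87) and from 8.86 to 53 CPM with Diet 6 (median 30.5), with 2.76 (SE 0.387, adjusted p = 0.000606), and 8 of 9 Diet 6 fish were above every Diet 5 fish. Against Diet 1 these contigs fell with Diet 5, by 1.46, 0.89 and 2.82, and stood at 0.13, 0.24 and -0.08 with Diet 6.

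The falls with the smallest adjusted p included a trafficking protein and a cytochrome P450. Trafficking kinesin-binding protein 1-like, whose mammalian counterpart ties mitochondria to motor proteins, ranged from 14.3 to 60.0 CPM with Diet 5 (median 43.5) and from 4.14 to 11.0 CPM with Diet 6 (median 8.69), with no overlap and -2.26 (SE 0.264, adjusted p = 0.000112). Cytochrome P450 2K1-like, of a P450 family found in fish, ranged from 125 to 623 CPM with Diet 5 (median 312) and from 36.0 to 127 CPM with Diet 6 (median 77.1), with -2.15 (SE 0.296, adjusted p = 0.000522). Against Diet 1 both rose with Diet 5, by 1.77 and 1.83, and stood at -0.49 and -0.32 with Diet 6. Mannose-specific lectin-like, a sugar-binding protein, had -1.69 (SE 0.240, adjusted p = 0.000606), palmitoyltransferase ZDHHC3-like isoform X1, which attaches palmitate to proteins, -1.13 (SE 0.143, adjusted p = 0.000254), and catechol O-methyltransferase domain-containing protein 1-like -1.09 (SE 0.156, adjusted p = 0.000606). In all 3 the diets did not overlap.

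The largest falls were in contigs that were nearly silent with Diet 6. Matrix metalloproteinase-16-like, a membrane-bound protease of the extracellular matrix, ranged from 0.630 to 60.2 CPM with Diet 5 (median 10.2), was at 0 in 6 of 9 Diet 6 fish and reached 0.238 CPM in the highest of them. Over all fish it held 1408 counts with Diet 5 and 7 with Diet 6, a ratio of 249-fold with a counting interval of 121 to 621. The fitted log2 change was -8.26 (SE 0.934, adjusted p = 9.01e-05). Claudin-15-like, a pore-forming tight junction protein, held 396 counts with Diet 5 and 12 with Diet 6, a ratio of 40.9-fold (23.1 to 79.8), with a fitted log2 change of -5.61 (adjusted p = 0.00308). Calcyphosin-like protein held 254 and 34 counts, 9.26-fold (6.45 to 13.7), and ADAMTS-like protein 1 held 150 and 23 counts, 8.08-fold (5.19 to 13.1). Their fitted changes were -3.60 and -3.43 (adjusted p = 0.00805 and 0.0131), and ADAMTS-like protein 1 lost the call without the 3 fish low in exocrine markers. Stricter filters on low counts left these contigs out of the test. With Diet 5, claudin-15-like ranged from 0 to 10.5 CPM, calcyphosin-like protein from 0 to 5.18 CPM and ADAMTS-like protein 1 from 0 to 5.21 CPM. With Diet 6 they reached at most 0.381, 0.693 and 0.381 CPM. With Diet 1 the median of matrix metalloproteinase-16-like was 0.409 CPM, and it rose with Diet 5 against Diet 1 (5.18, adjusted p = 0.00136).

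Retinol dehydrogenase 12, which interconverts retinal and retinol, fell by 2.71 (SE 0.565, adjusted p = 0.0103), but Diet 5 replicate 3 held 175 CPM against at most 29.4 CPM in the other Diet 5 fish, and without it the change was -1.70. Receptor-type tyrosine-protein phosphatase F fell in 2 contigs that the rule for names took, isoforms X13 (-3.25, adjusted p = 0.00213) and X15 (-3.07, adjusted p = 0.00363), which may share reads. Both were below 20 CPM in every fish and were not DEGs with counts summed per T tag.

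Among the larger rises, sodium/myo-inositol cotransporter-like, which carries the osmolyte myo-inositol, ranged from 3.25 to 22.6 CPM with Diet 5 (median 7.90) and from 7.17 to 194 CPM with Diet 6 (median 26.7). The log2 change was 2.72 (SE 0.635, adjusted p = 0.0211), and 7 of 9 Diet 6 fish were above every Diet 5 fish. Lysophosphatidic acid receptor 4 rose by 2.35 (SE 0.391, adjusted p = 0.00213), and protein NOV homolog, a secreted matrix-associated protein, by 2.22 with no overlap (SE 0.366, adjusted p = 0.00212). Tetraspanin-18-like rose by 1.88 (adjusted p = 0.00691), glial cell line-derived neurotrophic factor by 1.95 (adjusted p = 0.0211), prelamin-A/C-like, a nuclear lamina protein, by 1.72 (adjusted p = 0.00485) and integrin alpha-8, a matrix receptor, by 1.64 (adjusted p = 0.00805). The medians of the last 4 with Diet 6 were between 2.10 and 7.81 CPM. Of the 7 contigs in this paragraph, sodium/myo-inositol cotransporter-like, glial cell line-derived neurotrophic factor, prelamin-A/C-like and integrin alpha-8 were not DEGs without the 3 fish low in exocrine markers.

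Markers of other tissues did not pass the test. The sex markers, male-specific protein, vitelline membrane outer layer protein 1 homolog and vitellogenin B, summed to 681 to 1765 CPM with Diet 5 and to 283 to 1532 CPM with Diet 6, with a smallest adjusted p of 0.371. The endocrine pancreas markers insulin and homeobox protein Nkx-6.1 summed to 0 to 2.78 CPM with Diet 5 and to 0 to 10.8 CPM with Diet 6, with a smallest adjusted p of 0.470. No contig of either list had an unadjusted p under 0.05, and DESeq2 called none.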

How the data were processed

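Liver RNA of 1 fish per library was sequenced. The authors trimmed the reads with Trim Galore 0.6.5 and cutadapt 2.7, aligned them to a white bass transcriptome with Bowtie2 2.3.4.1, estimated counts per contig with eXpress 1.5.1 and tested with DESeq2 1.24.0 (versions from the submitters' processing notes). The deposited values are these estimated (effective) counts, written as whole numbers without normalization, so rounding changed nothing. Quasi-likelihood models of edgeR 4.0.16 (R 4.3.3) with TMM normalization were fitted to the 17 libraries over all 9956 contigs whose counts averaged 5 or more, and p-values were adjusted over all of them. The SE was taken as the absolute log2 fold change over the square root of F. CPM uses the library total multiplied by the TMM factor over 53 libraries, and log2 CPM has a prior count of 0.5. Counting intervals cover counting error only.

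The members, the gene lists and the rule for names were chosen with earlier results of these data known. The rule takes the 15 described DEGs with the smallest adjusted p, the 10 with the largest rise and the 10 with the largest fall (of those where 5 or more fish of the higher diet held 10 or more counts), the DEGs and the smallest and largest changes of each list, the RT-qPCR contigs and the markers. Of the contigs so named, 1 is not reported here. Where another contig is named, it is a list member or is marked as picked once its values were known. Alternatives were DESeq2 1.42.0, DESeq2 size factors, other filters on low counts, keeping Diet 5 replicate 7, a joint fit of the 53 libraries, covariates for the L tag or the exocrine score (mean log2 CPM of 7 markers), a block on the replicate number, T tag sums, voom in limma 3.58.1, and leaving out each fish in turn. What the T and L tags stand for is not given in the sources used here. No sequences were used here.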

Additional observations from a re-analysis of the deposited data

Results flagged for a closer look

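In 228 groups of 8 or 9 fish (the contigs named by the rule, on log2 CPM), 29 had a fish whose gap to the nearest other fish, divided by the range of the group, exceeded Dixon's 95% critical value. That is 12.7%, where about 1 in 20 groups of normally distributed values would be flagged. The groups reuse the same libraries and are not independent, so the excess was not tested.

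Many of these fish were the same. Diet 5 replicate 3 was the lowest of its diet in Krueppel-like factor 10 (39.2 CPM) and growth arrest-specific protein 1-like (11.9 CPM). It was the highest in retinol dehydrogenase 12 (175 CPM), 3-hydroxy-3-methylglutaryl-Coenzyme A reductase (2202 CPM), probable ergosterol biosynthetic protein 28 (195 CPM), fatty acid synthase (4682 CPM) and arginase-1-like (334 CPM). Each of these contigs other than fatty acid synthase was a DEG with and without this fish. Diet 6 replicate 7 was the lowest of its diet in complement factor H-related protein 4-like (1.92 CPM), transferrin receptor protein 1 (52.6 CPM), NADH dehydrogenase subunits 5 (4989 CPM) and 2 (394 CPM), cytochrome c oxidase subunit I (4081 CPM) and interleukin-6 receptor subunit beta-like (8.40 CPM). It was the highest in hemoglobin subunit beta-A-like (41.7 CPM) and apolipoprotein C-I-like (254 CPM).

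Diet 6 replicate 6 was the lowest in core-binding factor subunit beta (8.86 CPM), ferritin, middle subunit (811 CPM) and transaldolase (0 CPM), and the highest in phospholipid hydroperoxide glutathione peroxidase (422 CPM) and fatty acid synthase (1111 CPM). Diet 5 replicate 6 was the lowest in catechol O-methyltransferase domain-containing protein 1-like (805 CPM) and cysteine-rich with EGF-like domain protein 2 (20.2 CPM) and the highest in immunoglobulin delta heavy chain (118 CPM). Diet 5 replicate 4 was the lowest in C-C motif chemokine 19-like (3.90 CPM) and the highest in fibroblast growth factor receptor 4 (11.6 CPM).

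The remaining values came from 4 fish. They were palmitoyltransferase ZDHHC3-like isoform X1 in Diet 6 replicate 1 (16.3 CPM), calcyphosin-like protein in Diet 5 replicate 2 (0 CPM), lysozyme C in Diet 5 replicate 9 (45338 CPM) and insulin in Diet 6 replicate 5 (9.26 CPM).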

How the results depend on the processing

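The count of DEGs was 259 (123 higher and 136 lower with Diet 6) and became 410 with DESeq2 (188 and 222), 389 in 1 fit of all 53 libraries (198 and 191), 81 with counts summed per T tag (23 and 58), 121 without the 3 Diet 6 fish lowest in exocrine markers (37 and 84), an alternative chosen after seeing the data, and 768 at an unadjusted p under 0.05 (375 and 393). The higher calls were 69 with the exocrine score as a covariate (193 DEGs in all). The T tag sums and the fit without the 3 fish use fewer samples, and the cause of these shifts was not tested. Of the 162 described DEGs, DESeq2 also called 160, the exocrine covariate 119, the fit without the 3 fish 81 and the T tag sums 56. With counts summed per T tag, the contigs named by the rule held 35 DEGs instead of 65 and the lists 21 instead of 40. Leaving out each fish in turn gave 192 to 369 DEGs (82 to 169 higher and 110 to 200 lower), 58 to 66 named DEGs and 36 to 50 in the lists. The extremes of the DEG counts came without Diet 6 replicate 3 and without Diet 6 replicate 6. No DEG named by the rule changed sign under any alternative.

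With the replicate number as a block there were 173 DEGs, of which 78 were higher and 95 lower, and 106 of the described DEGs were called. Fish with the same number did not deviate together (correlations from -0.11 to 0.18 over 8 pairs, and 1 of 8 was closest to its own number), so the numbers do not pair the fish. Depth limits contigs at few counts, such as maltase-glucoamylase with 35 counts over the Diet 6 fish.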

Other observations

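Several DEGs outside the lists that were higher with Diet 6 belong to TGF-beta signalling and the extracellular matrix. They were chosen after their values were seen and no list was tested. Mothers against decapentaplegic homolog 3, a transducer of TGF-beta signals, ranged from 20.4 to 46.2 CPM with Diet 5 (median 29.9) and from 42.0 to 88.5 CPM with Diet 6 (median 56.7), with a log2 change of 0.97 (SE 0.172, adjusted p = 0.00363 by edgeR). Mothers against decapentaplegic homolog 1, which transduces bone morphogenetic protein signals and thereby controls hepcidin transcription in mammals, was at most 6.66 CPM with Diet 5 (median 4.97) and at least 7.16 CPM with Diet 6 (median 8.00), with a log2 change of 0.68 (SE 0.144, adjusted p = 0.0110). Its relation to hepcidin in these fish was not tested. TGF-beta receptor type-1-like had 0.77 (adjusted p = 0.0290) and was a DEG in 12 of the 17 fits that left out 1 fish. Thrombospondin-2, a matrix protein, rose from a median of 3.56 to 11.4 CPM (1.43, SE 0.278, adjusted p = 0.00614) and podocan from 2.69 to 6.22 CPM (1.18, SE 0.274, adjusted p = 0.0211). Collagen alpha-1(XVI) chain (1.56, adjusted p = 0.0371) and matrix Gla protein (1.38, adjusted p = 0.0388) were DEGs in 5 of the 17 fits each. Of these 7 contigs, mothers against decapentaplegic homologs 3 and 1 were DEGs without the 3 fish low in exocrine markers, and neither was with counts summed per T tag. Other matrix contigs went the other way, among them matrix metalloproteinase-16-like and ADAMTS-like protein 1, described above. Microfibril-associated glycoprotein 4-like was also lower, from 32.0 to 148 CPM with Diet 5 to 18.7 to 36.0 CPM with Diet 6.

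Further DEGs chosen after their values were seen were enzymes of lipid handling. Glycerol kinase-like, which returns glycerol to lipid synthesis, ranged from 55.4 to 191 CPM with Diet 5 (median 102) and from 17 to 73.5 CPM with Diet 6 (median 24.9), with -1.91 (SE 0.278, adjusted p = 0.000745). Acyl-CoA-binding protein had -0.70 (SE 0.145, adjusted p = 0.00983), and 2 enzymes of choline phospholipid breakdown, phosphoethanolamine/phosphocholine phosphatase (-1.15, adjusted p = 0.0131) and glycerophosphocholine phosphodiesterase GPCPD1 (-0.74, adjusted p = 0.0155), were lower with Diet 6. Magnesium transporter MRS2 homolog of the mitochondrial inner membrane had -1.69 (SE 0.328, adjusted p = 0.00614) and LETM1 domain-containing protein 1 had -0.78 (SE 0.133, adjusted p = 0.00269), and both are nuclear-encoded. Neuropeptide B rose with no overlap between the diets, from 0.926 to 3.04 CPM with Diet 5 to 3.70 to 6.62 CPM with Diet 6 (1.39, SE 0.223, adjusted p = 0.00199).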
